A study of Homo sapiens with 4 samples.

Results

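The guide strands of the family of miR-130 and miR-301 were analysed in HepG2 cells, an established human hepatoma cell line, after treatment with berberine, a plant alkaloid. The 5 members were taken by name from the array files, as hsa-miR-130a, hsa-miR-130b, hsa-miR-301a, hsa-miR-301b and hsa-miR-454, of 851 human miRNAs listed there. In the 2 h and 4 h berberine groups, HepG2 cells received 40 µM berberine chloride. In the 2 h and 4 h control groups, HepG2 cells received 0.08% DMSO, the solvent, and no genetic change was made in any group. Total RNA of each of the 4 conditions was labelled with Cy3 and read on 1 Agilent human miRNA microarray, and the 4 arrays lay on 1 slide read in 1 scan. With a single array for each condition, the variation among cultures of a condition could not be measured, and it is absent from the errors of the signals and ratios given here.

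A miRNA is a short RNA that guides the silencing machinery to messenger RNAs, mainly through its seed, the stretch of bases near its 5′ end that pairs with the target. This family is defined by 1 shared seed, and its members can therefore recognise overlapping sets of targets. PPARG, a nuclear receptor of lipid metabolism, is among the known targets of family members, and miR-301a is often studied in tumours. The guide strand is the arm of the hairpin that is mostly kept, and the other arm, marked with an asterisk in the older names used on the array, is mostly degraded.

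The sequences below are shown because the shared seed is what makes these miRNAs a family. Mature sequences were taken from RefSeq, assembly GRCh38.p14, in which 4 of the 5 members were matched by name. They are written 5′ to 3′, with the seed, bases 2 to 8, in capitals.
hsa-miR-130b: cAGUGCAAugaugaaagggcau
hsa-miR-301a: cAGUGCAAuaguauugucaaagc
hsa-miR-301b: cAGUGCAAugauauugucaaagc
hsa-miR-454: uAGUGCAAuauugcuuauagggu
hsa-miR-130a is named only.

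The seed AGUGCAA was the same in the 4 sequences, and it was held by 6 of 2370 mature miRNAs in the RefSeq table, or 0.253%. The other two, hsa-miR-3666 and hsa-miR-4295, are not in the list of miRNAs of the array. Outside the seed the members differed to unequal degrees. Counted from 1 at the 5′ end, hsa-miR-301a and hsa-miR-301b had the same base at 21 of 23 positions and differed by A10G and G11A, written with the base of hsa-miR-301a first. Each other pair had the same base at 10 to 13 positions of the 22 or 23 compared. A probe for 1 of this close pair could bind the other, and binding between them was not tested here, so the values of hsa-miR-301a and hsa-miR-301b may not be independent.

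Of the 5 genes of the family, 4 lie in pairs. In the GRCh38.p14 annotation MIR301B and MIR130B were each the miRNA gene nearest to the other, on chromosome 22, with the mature sequences at chr22:21653025-21653047 and chr22:21653354-21653375 on the plus strand. MIR301A and MIR454 were likewise nearest to each other on chromosome 17, with the mature sequences at chr17:59151149-59151171 and chr17:59137787-59137809 on the minus strand, and both lay within the interval of SKA2, a gene of chromosome segregation. MIR130A lay on chromosome 11 within the interval of its host gene MIR130AHG. The array design names the older build hg18, and no coordinate of the arrays was used.

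All 5 members were detected on all 4 arrays, so none was lost to a filter on low values. Of the 851 human miRNAs, 197 were detected on all 4 arrays and 599 on none. The berberine array of 2 h had the fewest detected human miRNAs, 199, beside 235 on its control, and that of 4 h had the most, 242, beside 226. The deposited value of a miRNA is its total signal, an intensity summed over its detected probes after background subtraction, and the Feature Extraction software gives it an error that covers the measurement on that array. For the members this error was 6.72% to 14.0% of the signal. None of the 80 member spots on an array was saturated.

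The label of the cells was checked against 3 hepatocyte markers, whose detection does not by itself settle the cell type. miR-122, the most typical miRNA of hepatocytes, and miR-192 and miR-194, which are abundant in liver and gut, were detected on all 4 arrays. miR-122 had a total signal of 31.5 (control) and 22.4 (berberine) at 2 h, and of 30.1 and 39.9 at 4 h. miR-192 had 1268 and 821 at 2 h and 1069 and 1565 at 4 h. miR-194 had 744 and 498 at 2 h and 566 and 931 at 4 h. Of the markers of other cell types, miR-223 of myeloid cells, miR-126 of endothelium, miR-124 of neurons and miR-1 of muscle were detected on no array. miR-145 of smooth muscle and fibroblasts was detected on every array, at 30.8 and 19.7 at 2 h and 29.9 and 42.3 at 4 h. miR-142-3p and miR-451 of blood cells and miR-143 of fibroblasts were detected only on the berberine array of 4 h, at 6.13, 5.31 and 3.95, and that array was the brightest. Of the 8 markers of other cell types, 4 were thus detected on it and 1 on each other array, with summed signals of 57.7 and of 19.7 to 30.8. The 3 hepatocyte markers summed to 2043 (control) and 1341 (berberine) at 2 h, and to 1665 and 2536 at 4 h. The part of these markers in the values of the members was not tested.

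The arrays differed in overall brightness, and the deposited signals of the members followed it. The total signal of hsa-miR-130b, with the error of the software, was 239 ± 17.2 (control) and 164 ± 12.0 (berberine) at 2 h. At 4 h it was 205 ± 14.9 (control) and 291 ± 21.1 (berberine). The berberine array of 4 h was the highest and that of 2 h the lowest, and the other 4 members had the same order of arrays. The 75th percentile over the 197 miRNAs, a measure of the brightness of an array, was 243 and 169 at 2 h and 225 and 297 at 4 h, in that order as well. As deposited, the ratio of berberine over control thus ran from 0.673 to 0.711 over the members at 2 h and from 1.36 to 1.52 at 4 h. Each signal was thus divided by its array's 75th percentile before log2 was taken, and this is called the scaled signal.

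**Figure D1:**
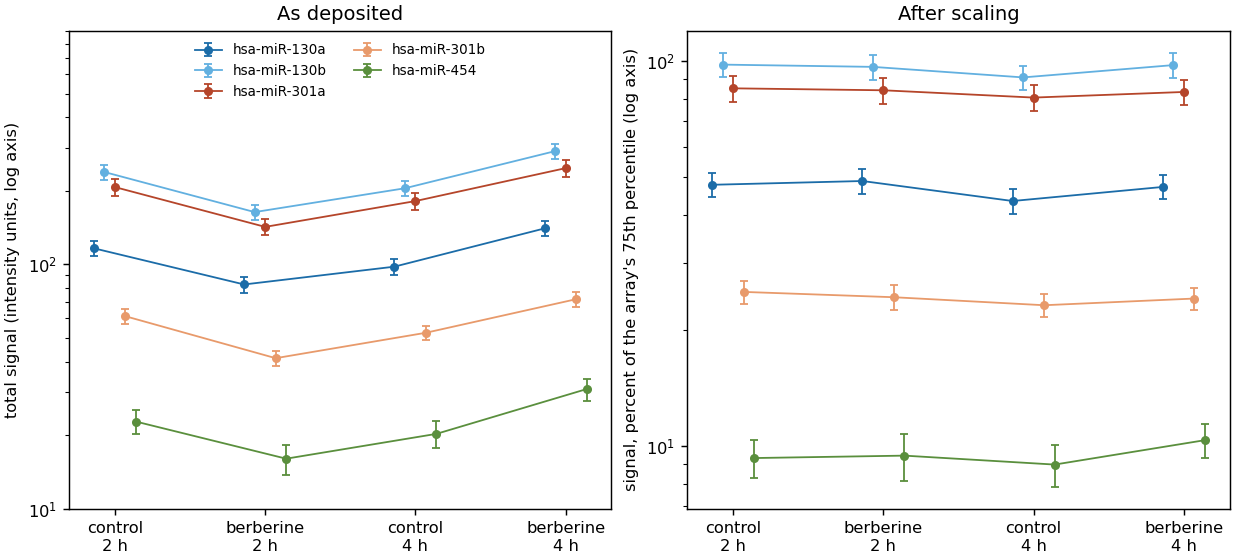
Total signal of the 5 members on the 4 arrays as deposited (left, intensity units, log axis) and as a percentage of each array's 75th percentile over the 197 miRNAs detected on all arrays (right, log axis), 1 point per array, with bars of 1 error of the Feature Extraction software. Left, every member was lowest on the berberine array of 2 h and highest on that of 4 h; right, the lines are nearly level, from 43.4% to 48.9% for hsa-miR-130a, for example. Heights of different miRNAs come from different probes and are not comparable.

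hsa-miR-130a, encoded apart from the other members, had total signals of 116 ± 8.42 (control) and 82.7 ± 6.29 (berberine) at 2 h, and 97.8 ± 7.26 (control) and 140 ± 10.1 (berberine) at 4 h. In percent of the 75th percentile these were 47.8% and 48.9% at 2 h, and 43.4% and 47.2% at 4 h. On this scale the berberine arrays were a little higher than their controls at both times and the control array of 4 h was the lowest, but with arrays scaled to their medians the log2 ratio at 4 h was -0.05 and that array was the highest. The log2 ratio of berberine over control was 0.03 (SE 0.15) at 2 h and 0.12 (SE 0.15) at 4 h, where SE is the error propagated from both arrays.

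hsa-miR-130b, the neighbour of hsa-miR-301b, stood at 98.1% (control) and 96.8% (berberine) of the 75th percentile at 2 h, and at 90.8% and 97.8% at 4 h. Of the 4 values, 3 were nearly equal and the control array of 4 h was the lowest, but with arrays scaled to their medians that array was the highest. Its log2 ratio was -0.02 (SE 0.15) at 2 h and 0.11 (SE 0.15) at 4 h.

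hsa-miR-301a had a total signal of 207 ± 15.8 and 142 ± 11.1 at 2 h and of 182 ± 13.9 and 248 ± 18.9 at 4 h, on the control and berberine arrays in this order. These were 85.1% and 84.1% of the 75th percentile at 2 h, and 80.5% and 83.3% at 4 h. By total signal this was the most level member, with a log2 ratio of -0.02 (SE 0.16) at 2 h and 0.05 (SE 0.16) at 4 h. The 4 h ratio of hsa-miR-301a was -0.12 with arrays scaled to their medians. It was -0.36 with undetected miRNAs included in the 75th percentile. All probes of hsa-miR-301a were counted on every array, so its total with the same probes summed could not differ, and that ratio was 0.05. Its paralog hsa-miR-301b had 61.3 ± 4.20 and 41.3 ± 3.03 at 2 h, and 52.5 ± 3.65 and 72.0 ± 4.84 at 4 h. In percent of the 75th percentile the paralog stood at 25.2% and 24.4% at 2 h, and at 23.3% and 24.2% at 4 h. The log2 ratio of the paralog was -0.05 (SE 0.14) at 2 h and 0.06 (SE 0.14) at 4 h, and the latter was below 0 under 6 alternatives, from -0.01 with the brightest probe only to -0.35 with undetected miRNAs included in the 75th percentile.

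hsa-miR-454, which shares a locus with hsa-miR-301a, was the dimmest member, and its errors were the widest. Its total signal was 22.7 ± 2.53 and 16.0 ± 2.25 at 2 h, and 20.2 ± 2.52 and 30.8 ± 3.18 at 4 h, on the control and berberine arrays. In percent of the 75th percentile it stood at 9.33% and 9.46% at 2 h, and at 8.97% and 10.4% at 4 h. The berberine array of 4 h stood above the other 3, which were close together. Its log2 ratio was 0.02 (SE 0.26) at 2 h and 0.21 (SE 0.23) at 4 h, and the 4 h value depended on 1 probe, as described further on.

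In the order of the 4 arrays, the control array of 4 h was the lowest for all 5 members with the 75th percentile, but the highest for 4 of them, all but hsa-miR-454, with arrays scaled to their medians. With the 75th percentile the highest was the control array of 2 h for hsa-miR-130b, hsa-miR-301a and hsa-miR-301b, the berberine array of 2 h for hsa-miR-130a and the berberine array of 4 h for hsa-miR-454. Neighbours in this order were within error of each other, and so were all other arrays: of the 30 pairs of arrays over the 5 members, 0 differed beyond the 95% range of the measurement, which is computed from the SE. The distance from the lowest to the highest array on the log2 scale was 0.08 for hsa-miR-301a, 0.11 for hsa-miR-130b and hsa-miR-301b, 0.17 for hsa-miR-130a and 0.21 for hsa-miR-454. With the same probes on every array the distance of hsa-miR-454 was 0.07, the smallest of the members, and its highest array was the berberine array of 2 h. The median of this distance was 0.11 over the members and 0.27 over the 197 miRNAs. Before scaling the distance was 0.76 to 0.95 for the members, beside a median of 0.89 over the 197.

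The effect of berberine was examined at each time against the control of the same time, with the fold change of 2 used in the study as the limit of size. At 2 h, 0 of the 5 members passed 2-fold, beside 1.02% of the 197 miRNAs detected on both arrays. Likewise 0 of the members had a ratio whose 95% range left out 0, beside 9.14% of the 197. The log2 ratios ran from -0.05 (hsa-miR-301b) to 0.03 (hsa-miR-130a), with 2 members above 0 and 3 below. Their median was -0.02, and the median of all miRNAs was -0.02 as well. The 95% ranges of the measurement reached from a fold of 0.714 to one of 1.44, both set by hsa-miR-454, so a change within this range was not detectable for that member. For the other 4 members the ranges reached from 0.796 to 1.26.

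At 4 h, 0 of the 5 members passed 2-fold, beside 0.917% of the 218 miRNAs detected on both arrays, and 0 had a 95% range that left out 0, beside 11.5%. The log2 ratios ran from 0.05 (hsa-miR-301a) to 0.21 (hsa-miR-454). All 5 ratios were above 0 with this scaling, but when each array was scaled to its median instead, the median of the members was -0.07. Of all miRNAs 69.7% were above 0, and the median of the members, 0.11, was that of all miRNAs, 0.11. Of the hepatocyte markers, miR-194 had a 95% range that left out 0, with a log2 ratio of 0.32 (SE 0.16), and miR-122 and miR-192 had 0.01 and 0.15. Set against the median of all miRNAs, the members stood at -0.06 (hsa-miR-301a) to 0.10 (hsa-miR-454). The 95% ranges reached from a fold of 0.837 to one of 1.59.

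**Figure D2:**
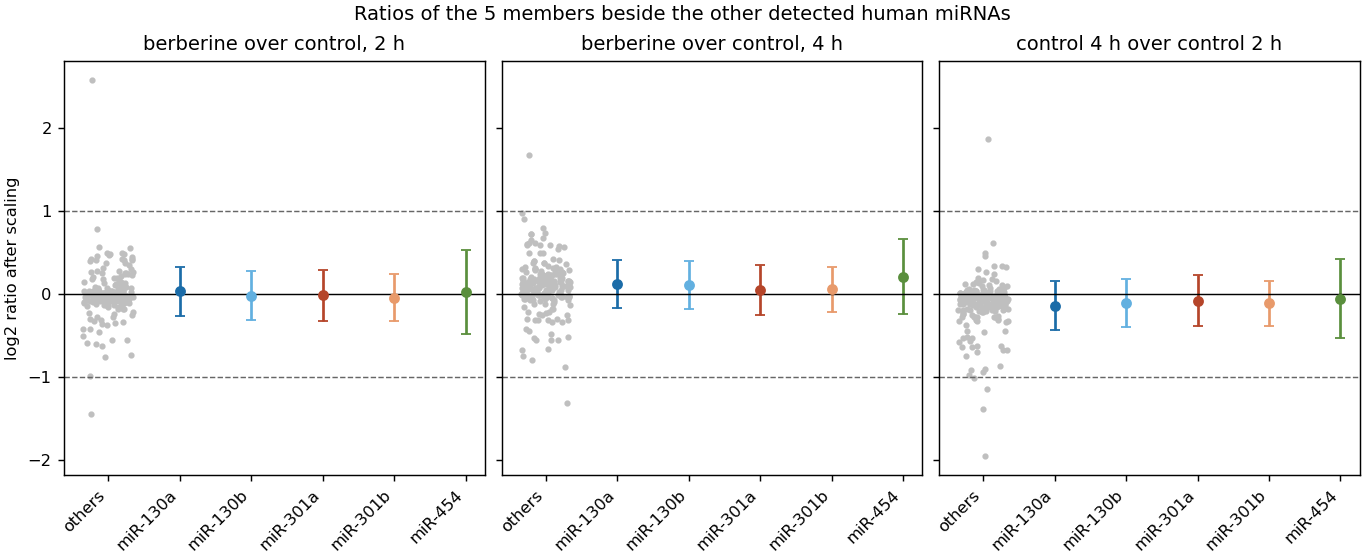
Log2 ratio of the scaled signal of the 5 members (coloured points, with bars for the 95% range of the measurement) beside the other human miRNAs detected on both arrays (grey points), for berberine over control at 2 h, at 4 h, and for the control array of 4 h over that of 2 h. Dashed lines mark a 2-fold change. All member ratios lie between -0.14 and 0.21 and every bar crosses 0.

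The 2 control arrays, which differ in time and not in berberine, gave differences of the size seen with berberine at 4 h. The log2 ratio of the control array of 4 h over that of 2 h ran from -0.14 (hsa-miR-130a) to -0.06 (hsa-miR-454). All 5 members were below 0 with this scaling, but with the arrays scaled to their medians the median of the members was 0.10. Of the members, 0 passed 2-fold, beside 2.28% of the 219 miRNAs compared, and 0 had a 95% range that left out 0, beside 6.85%. Of all miRNAs 77.2% were below 0. The comparison at 4 h and that between the control arrays share the control array of 4 h, so their signs are not independent.

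The members were also compared with each other, by their ratios and not by their levels. Of the 10 pairs of members, 0 differed in ratio beyond the 95% range of their difference at 2 h, at 4 h or between the control arrays. The largest difference between members was 0.08 at 2 h, between hsa-miR-130a and hsa-miR-301b, and 0.16 at 4 h, between hsa-miR-454 and hsa-miR-301a, on the log2 scale. The neighbours of chromosome 17 were thus the most distant pair at 4 h, but only with the dim probe of hsa-miR-454 counted. With the same probes on every array the ratios ran from 0.00 (hsa-miR-454) to 0.12 (hsa-miR-130a), and hsa-miR-301a had 0.05. With the errors of the software these arrays could not separate ratios of members that differ by so little.

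Over both times together, limma was fitted to the 197 miRNAs with treatment and time point as terms, which left 1 residual degree of freedom among the arrays. By this fit 0 of the 5 members passed an adjusted p of 0.05, beside 0.508% of all miRNAs, and 0 had an unadjusted p under 0.05, beside 4.57%. The fitted log2 change with berberine was 0.01 (hsa-miR-301b) to 0.12 (hsa-miR-454), but it was -0.05 to 0.09 without the control array of 4 h and -0.09 to 0.02 with arrays scaled to their medians, and the limma adjusted p was 0.997 for each member with all arrays and the scaling above. In this fit with all arrays and the scaling above, the SE was 0.206 for each, larger than any of the fitted changes. limma draws the variance of each miRNA toward that of all, here with a weight of 54.18 prior degrees of freedom beside the 1 residual one. This SE is thus almost wholly pooled over the 197 miRNAs and does not measure the spread of a member. With a variance that follows the signal it was 0.120 (hsa-miR-130b) to 0.281 (hsa-miR-454). With quantile normalization 2 changes were larger than their SE. They were -0.11 (SE 0.03) for hsa-miR-301b and 0.04 (SE 0.03) for hsa-miR-454, with unadjusted limma p of 0.093 and 0.279. With arrays scaled to their medians the change of hsa-miR-301b, -0.086, was a little larger than its SE of 0.085. Without the berberine array of 2 h the change of hsa-miR-454, 0.18, was larger than its SE as well.

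Each member was measured by several probes, and these gave a check within an array. hsa-miR-130a, hsa-miR-130b, hsa-miR-301a and hsa-miR-454 had 2 probes of 8 spots each, and hsa-miR-301b had 4 probes of 4 spots. The spots of a probe differed by a coefficient of variation of 1.48% to 16.5%, with a median of 4.69%. Of the 12 probes, 10 were counted in the total signal on all 4 arrays. The probe ratios of berberine over control ran from -0.08 to 0.16 at 2 h, with 4 of 10 above 0. They ran from -0.02 to 0.14 at 4 h, with 9 of 10 above 0. Of all miRNAs, 42.1% were above 0 at 2 h and 69.7% at 4 h. The median ratio of the members at 4 h, 0.11, became -0.07 with arrays scaled to their medians. Probe ratios were not computed with that scaling, so the count of 9 may depend on the scaling used. At either time 0 of the 10 probes had a 95% range that left out 0.

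**Figure D3:**
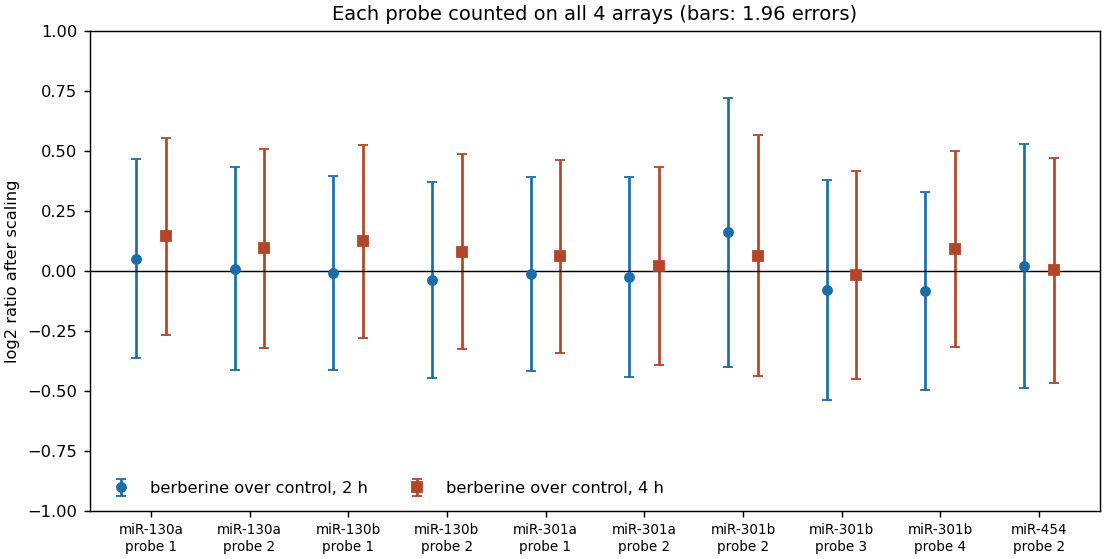
Log2 ratio of berberine over control for each of the 10 member probes counted on all 4 arrays, at 2 h (circles) and at 4 h (squares), with bars for the 95% range of the measurement. The circles run from -0.08 to 0.16, the squares run from -0.02 to 0.14, and every bar crosses 0.

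The total signal of hsa-miR-454 was not summed over the same probes on every array. The software counts a probe only where its signal exceeds 3 times its error. The dimmer probe of hsa-miR-454 had 3.06 (control) and 2.39 (berberine) at 2 h, and 3.16 and 4.12 at 4 h, and only the last passed, with an error of 1.26. On the brighter probe alone the values were 22.7 and 16.0 at 2 h and 20.2 and 26.7 at 4 h, and the log2 ratio at 4 h was 0.00 (SE 0.24) in place of 0.21. With an identical set of probes for each array it was 0.00 too, and the highest ratio of a member at 4 h was then 0.12, that of hsa-miR-130a.

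The probes of hsa-miR-301b did not move alike at 2 h. Probe 1 was counted on no array, with signals of -0.52 to 0.06, and probe 2, the dimmest of the rest, had a log2 ratio of 0.16 (SE 0.29). Probes 3 and 4 had -0.08 (SE 0.23) and -0.08 (SE 0.21), so these probes did not differ beyond their errors. The kept spots of probe 4 did not overlap between arrays in any comparison, after 1 of its 4 spots on the berberine array of 4 h, with a signal of 0.767, was left out as an outlier. In percent of the 75th percentile they ran from 56.6% to 58.8% on the control array and from 52.2% to 55.1% on the berberine array at 2 h, and from 46.2% to 53.6% and from 53.8% to 56.5% at 4 h. The kept berberine spots were thus below the control spots at 2 h and above them at 4 h. With all spots included and all probes summed, the log2 ratio of hsa-miR-301b at 4 h was -0.25. Spots of 1 array share its RNA, labelling and scaling, so they are not replicates of a condition. The spots of 9 of the 10 probes overlapped at 2 h, and those of 8 of 10 at 4 h. The second probe without overlap at 4 h was probe 2 of hsa-miR-130a, with 38.0% to 39.9% on the control array and 40.0% to 43.3% on the berberine array. On that control array only 4 of its 8 spots were kept after outlier spots were left out.

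The other arms of the hairpins were at the edge of detection. hsa-miR-130a* was detected on the control array of 4 h alone, with a signal of 3.17 ± 0.888, and by scaled signals was at least 2.11-fold lower on the berberine array of 4 h, taking there the lowest detected signal of that array as the limit. Against the control array of 2 h it was at least 1.91-fold higher. hsa-miR-130b* was detected on the control array of 2 h, at 4.89 ± 0.840, and on the berberine array of 4 h, at 2.92 ± 0.667. It was at least 1.35-fold lower with berberine at 2 h, and at least 1.94-fold lower on the control array of 4 h than on that of 2 h. At 4 h no fold above 1 could be given. These bounds are set by the detection limits of the arrays and leave out the errors of the detected signals, and their sizes are not comparable. hsa-miR-454* was detected on no array, and the other arms of the hairpins of miR-301a and miR-301b are not in the list of the array. These arms thus gave no ratio that could be set beside those of the guide strands.

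A pair of families with seeds that overlap that of the members at a shifted position were taken for comparison, since such seeds can pair with part of the same target sites. One sequence of each is shown, from the same RefSeq table, with the seed in capitals.
hsa-miR-19a: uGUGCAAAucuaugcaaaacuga
hsa-miR-148a: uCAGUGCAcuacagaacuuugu
The miR-19 seed shares the run GUGCAA with the seed of the members, and the seed of miR-148a, miR-148b and miR-152 shares AGUGCA. miR-19a and miR-19b, known for promoting growth, had log2 ratios of -0.07 and -0.10 at 2 h and of 0.16 and 0.11 at 4 h. miR-148a and miR-148b had -0.05 and 0.01 at 2 h and 0.14 and 0.12 at 4 h. miR-152, of the same family, was not detected on the berberine array of 2 h and had -0.01 (SE 0.44) at 4 h. At either time 0 of these had a 95% range that left out 0. The medians were -0.09 and 0.13 for the miR-19 pair, -0.02 and 0.12 for miR-148a, miR-148b and miR-152 as far as detected, and -0.02 and 0.11 for the 5 members, at 2 h and 4 h.

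The miRNAs whose course over the 4 arrays was most like the mean of the members were found by centring each on its own mean scaled log2 signal and taking the root mean square difference over the 4 arrays. They were hsa-miR-331-3p, with 0.0065, hsa-miR-455-3p, with 0.0080, and hsa-miR-148b, with 0.0100. The mean of the members includes hsa-miR-454, at 0.12 on the berberine array of 4 h, where alone its dim probe was counted. Likeness with the same probes on every array was not computed, so the choice and order of these miRNAs may depend on that probe. The members themselves stood at 0.0055 (hsa-miR-130b) to 0.0550 (hsa-miR-454) from their mean, and the median of the other miRNAs was 0.0939. hsa-miR-331-3p, for example, had log2 ratios of 0.00 at 2 h and 0.09 at 4 h, both with 95% ranges that held 0. Likeness over 4 arrays of 1 slide is a description of nearly level courses, and all these values are well below the SE of a single ratio.

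**Figure D4:**
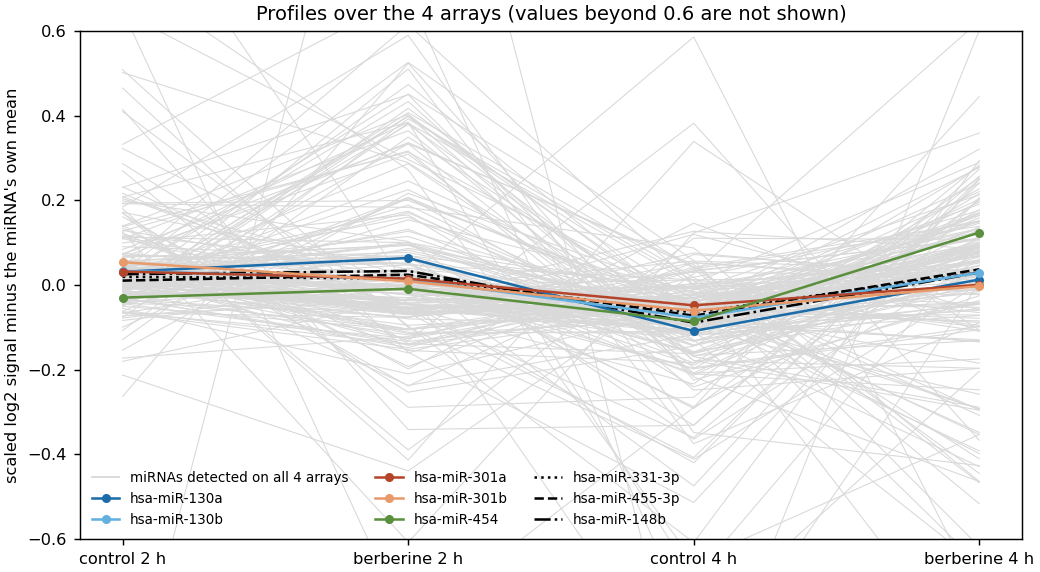
Scaled log2 signal of each miRNA minus its own mean over the 4 arrays, for the 5 members (coloured lines with points), the 3 miRNAs most like their mean (black lines) and the miRNAs detected on all 4 arrays (grey lines), by array; lines beyond 0.6 run out of the plot. The members lie between -0.11 on the control array of 4 h and 0.12 (hsa-miR-454) on the berberine array of 4 h, where alone the dim probe of hsa-miR-454 was counted.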

How the data were processed

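Total RNA of HepG2 cells, 1 sample per condition, was measured on single-colour Agilent miRNA arrays. The authors deposited Feature Extraction 10.7.3.1 output, with background-subtracted intensity per spot, probe and miRNA, not scaled between arrays. A further deposited table holds only the authors' ratios of berberine over control and was not used. An undetected miRNA is written as 0.1. The total signal equalled the sum of probes above 3 times their error for 3404 of 3404 values within 0.1%. Other columns of the scanner files, such as flags, were used as deposited to leave out outlier spots and count saturated ones.

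Log2 total signals were scaled to each array's 75th percentile, taken over the 197 human miRNAs that all 4 arrays detected. Errors were propagated from those of the software. Ratios were computed where a miRNA was detected on both arrays, without a test at a single time. For both times together, all 197 miRNAs were fitted in limma 3.58.1 (R 4.3.3) on treatment and time point, with Benjamini-Hochberg adjustment, after it was tested on simulated data. Python 3.11.15, pandas 2.3.3, numpy 2.4.6 and matplotlib 3.10.9 were used. Depth is set by signal over background: detected signals began at 1.79 to 2.52, over a median local background of 24 to 28.

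The miRNAs named were the 5 members, the other arms of their hairpins, the families of miR-19 and of miR-148 and miR-152, cell type markers, and the 3 miRNAs most like the mean of the members. The members, lists and tests were chosen with earlier results of these data known. Alternatives were other scalings, other summaries of spots and probes, a 1.5-fold limit, and other limma settings. RefSeq tables of GRCh38.p14 gave sequences and gene neighbours.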

Additional observations from a re-analysis of the deposited data

Results flagged for a closer look

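For 3 members the ratio of berberine over control was below 0 at 2 h and above 0 at 4 h with the 75th percentile, but with arrays scaled to their medians it was below 0 at 4 h as well, at -0.0653 for hsa-miR-130b, -0.1230 for hsa-miR-301a and -0.1138 for hsa-miR-301b. The log2 ratio at 4 h minus that at 2 h was 0.1258 (SE 0.210) for hsa-miR-130b, 0.0654 (SE 0.222) for hsa-miR-301a and 0.1033 (SE 0.201) for hsa-miR-301b. These differences were not tested, since each condition had a single array, and each was smaller than its SE. Opposite signs at the 2 times were found for 133 of the 197 miRNAs detected on all arrays, or 67.5%. The other members, hsa-miR-130a and hsa-miR-454, differed between the times by 0.0890 (SE 0.213) and 0.1892 (SE 0.348), with the same sign at both times.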

How the results depend on the processing

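Limits of 1.5-fold and 2-fold, other scalings, other summaries of spots and probes and other limma settings were compared with the values reported, and a log2 ratio was counted as moved where it shifted by more than 1 SE. Of the members' medians, 7 moved and 23 shifted by less, 5 of these with the opposite sign, and 1 count of members past 2-fold moved. Without scaling the median log2 ratio of the members was -0.5418 at 2 h and 0.5052 at 4 h. Scaled to the median of each array, it was -0.0653 at 4 h and 0.1013 between the control arrays. With undetected miRNAs included in the 75th percentile, it was 5.0894 at 2 h, -0.2988 at 4 h and 0.3924 between the control arrays, and 5 members passed 2-fold at 2 h; only 199 of 851 miRNAs were detected on the berberine array of 2 h, so this percentile fell there on the 0.1 written for undetected ones. These 3 scalings moved the median of all miRNAs alike, to -0.5454, -0.0338 and 5.0858 at 2 h and to 0.5070, -0.0635 and -0.2970 at 4 h, and since each shifts a whole array by 1 factor, the members' median minus that of all miRNAs, 0.0035 at 2 h and -0.0018 at 4 h, could not change. It was -0.0849 and 0.1430 with normexp correction, and -0.0302 and -0.0274 with the same probes summed on every array. At 4 h the median of the members was also below 0 with the brightest probe only, -0.0128, and with normexp correction, -0.0197. At 2 h it was above 0 with normexp correction, 0.0531, and with all spots included and all probes summed, 0.0065, and between the control arrays it was 0.0167 with the brightest probe only. Of the ratios of single members, 40 moved, 30 of them to the opposite sign, and 160 shifted by less than 1 SE, 25 of them to the opposite sign. The 160, and the 23 medians, include values that could not shift. Keeping only miRNAs detected on all 4 arrays left every member's ratio as it was. Summing the same probes changed the total of no member but hsa-miR-454. The ratio of hsa-miR-454 at 4 h fell within that SE to 0.0008 with the same probes, and that of hsa-miR-301b moved to -0.2462 with all spots and all probes. Over 10 alternative limma settings 0 members passed, with adjusted p from 0.592 to 1. When 1 array was left out in turn, without the time point and with the lone array of a group taken to vary like the others, the fitted change ran from 0.007 (without control 4 h) to 0.147 (without control 2 h) for hsa-miR-130a, from 0.049 (without berberine 4 h) to 0.182 (without berberine 2 h) for hsa-miR-454, and turned to -0.012, -0.024 and -0.051 for hsa-miR-130b, hsa-miR-301a and hsa-miR-301b without control 4 h. Without control 2 h these last were 0.099, 0.056 and 0.063. The time point in limma pairs each berberine array with its control, and 0 members passed with or without it. The error of hsa-miR-454, the dimmest member, was 10.3% to 14.0% of its signal. That of hsa-miR-301b was 6.7% to 7.3%, and the cause of this difference was not tested.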
